A study of Mus musculus with 4 samples.

Results

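The genes described here are 38 genes of the endoplasmic reticulum (ER) stress response, also called the unfolded protein response, among 22103 entries of a mouse liver expression table. They were taken by gene name from a fixed list of ER chaperones, disulfide isomerases, genes of ER-associated degradation, stress sensors with their transcription factors, and targets of ATF4. The list was prompted by the values of Hspa5 and Bhlha15 in these same livers, so the difference of the listed genes between genotypes is given as a description, without a test. All 38 members were in the table, and all 38 passed the low-value filter, a mean of at least 0.1 FPKM over the livers, together with 12346 genes in all. FPKM stands for fragments per kilobase of transcript, scaled to the number of fragments mapped in the library.

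Bulk RNA-seq was performed on whole liver from 2 wild-type mice (WT1 and WT2) and 2 mice without Brg1 in hepatocytes (KO1 and KO2). Brg1, encoded by Smarca4, is the ATPase of the SWI/SNF chromatin remodelling complex. As the study describes them, the knockout mice came from a cross of Smarca4 f/f with Alb-Cre mice, the WT mice were littermates, and the mice used for alcoholic liver injury were 8-wk males. Alb-Cre acts in cells that express albumin, so the other cells of the liver are not its targets. All 4 mice had taken alcohol for 15 days by the labels, and no liver without alcohol was part of the comparison. It therefore asks how the ER stress genes differ with genotype in alcohol-exposed liver, and not what alcohol does to them.

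The ER folds the secreted and membrane proteins of a cell, and hepatocytes secrete most plasma proteins. When unfolded protein builds up, 3 sensors in the ER membrane respond. IRE1 (Ern1) splices the mRNA of Xbp1 into a form that encodes an active transcription factor. ATF6 is cut in the Golgi to release another, and both factors raise chaperone and degradation genes. PERK (Eif2ak3) phosphorylates eIF2alpha, which slows translation but favours that of ATF4, a factor that induces amino acid metabolism genes and Ddit3, which encodes CHOP. Splicing, cleavage and phosphorylation are not read by gene-level RNA values.

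Promoter sequence is shown first, because elements of this response are known for some of the chaperone genes and others for some ATF4 targets. RefSeq promoter sequences, on GRCm38.p6, covered the 250 bases before and 50 bases after the gene start, and 34 of the 38 members had one. Atf6, Derl1, Hyou1 and Manf had none. The ER stress response element (ERSE), bound by ATF6 or XBP1 together with NF-Y, was searched on both strands as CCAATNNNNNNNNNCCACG. It was found in 9 of the 34 members (26.5%) and in 37 of 27025 genes with a promoter sequence (0.137%). Such elements are part of what defines the unfolded protein response, so this share describes the list and is not a separate result. In the sites below, written 5′ to 3′ on the strand of the gene, the fixed letters of the element are in capitals, and a site on the opposite strand reads CGTGG before ATTGG.

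Hspa5: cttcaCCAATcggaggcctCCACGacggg
Hsp90b1, far site: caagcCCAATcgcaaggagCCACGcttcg
Hsp90b1, near site: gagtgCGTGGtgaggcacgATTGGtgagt
Creld2: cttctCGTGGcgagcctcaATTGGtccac
Derl3: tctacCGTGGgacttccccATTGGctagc
Syvn1: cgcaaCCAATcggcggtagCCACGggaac

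These sites belonged to genes that stood high in KO2. The Hspa5 element lies at chr2:34772025-34772043, from -65 to -47 relative to the gene start. The Hsp90b1 elements lie at chr10:86705638-86705656 and chr10:86705533-86705551, the Creld2 element at chr15:88819520-88819538, the Derl3 element at chr10:75893242-75893260 and the Syvn1 element at chr19:6046532-6046550. The other 4 members with the element were Calr, Canx, Pdia6 and Dnajc3, which in KO2 were at 2.56, 1.55, 2.54 and 2.13 times the WT mean. ERSE-II, which is ATTGG and CCACG with 1 base between them, was searched on both strands and found in Herpud1 and Dnajb11 and in 12 genes in all (0.0444%). The gene starts are those of RefSeq. Of 33 members that could be compared, the transcript listed in the table starts over 250 bases away in 6, namely Hsp90b1 (3476 bases), Derl2 (598), Syvn1 (489), Asns (338), Sec61b (287) and Dnajb9 (258). The Hspa5 promoter is shown whole, with the 250 bases before the gene start, chr2:34771840-34772089 on the plus strand and the ERSE in capitals.

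Hspa5 promoter: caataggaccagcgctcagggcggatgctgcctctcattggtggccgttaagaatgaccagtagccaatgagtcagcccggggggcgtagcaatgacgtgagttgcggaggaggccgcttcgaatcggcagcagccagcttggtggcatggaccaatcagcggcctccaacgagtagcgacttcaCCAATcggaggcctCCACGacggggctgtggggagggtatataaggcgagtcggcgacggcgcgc

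The amino acid response element, TGATGNAA, which ATF4 binds as a dimer with C/EBP factors, was found on either strand in 4 of the 34 members (11.8%) and in 4.51% of all genes with a promoter sequence. Asns, Chac1 and Trib3 are targets of ATF4, and Herpud1 is a degradation gene. Their sites are shown with the fixed letters in capitals, those of Chac1, Trib3 and Herpud1 being on the opposite strand. No member carried both this element and an ERSE as spelled here.

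Asns: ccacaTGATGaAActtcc
Chac1: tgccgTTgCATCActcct
Trib3: caggtTTaCATCAgccgg
Herpud1: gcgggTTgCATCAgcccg

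The core of the XBP1 element, GACGTG on either strand, was in 5 of the 34 members (14.7%) and in 7.15% of all genes with a promoter sequence. The members were Hspa5, Pdia6, P4hb, Sec24d and Ddit3. A match of these letters is a description of the sequence and does not show that a factor is bound.

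The deletion was checked in the same table. Smarca4 read 1.78 FPKM in WT1 and 1.95 in WT2, against 0.608 in KO1 and 0.579 in KO2, so that the KO mean was 31.8% of the WT mean. The log2 difference was -1.5 with a standard error of 0.34 (limma, unadjusted p = 0.000548, adjusted p = 1). Both KO livers thus had low Smarca4, and they differed little from each other in it. Depth, recovered from the low values, was between about 72500000 and 80800000 reads per liver. The livers did not sort by genotype over all genes. The median absolute log2 difference between livers was 0.404 for KO1 against KO2, 0.307 for WT1 against WT2, 0.233 for WT1 against KO1 and 0.263 for WT2 against KO2. It was 0.329 for WT1 against KO2 and 0.384 for WT2 against KO1, so that livers with the same number were the closest. At an unadjusted p under 0.05 and a difference over 2-fold, the threshold of the study's methods, 121 genes passed (0.98% of those tested), and none did at an adjusted p under 0.05, against 247 genes (2%) at an unadjusted p under 0.05. An exact permutation test of 2 livers against 2 cannot give a p under 0.333.

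The ER stress genes were high in 1 KO liver, KO2, and near WT in the other. In KO2, 33 of the 38 members were above both WT livers, against 44.8% of all genes tested, and 19 of the 38 were more than 2-fold above the WT mean, against 3.26% of all genes. In KO1, 12 members were above both WT livers (19.1% of all genes), 12 were below both (50.5%) and 14 lay between them, and none was more than 2-fold above the WT mean (1.09%). More than 2-fold below the WT mean were 1 member in KO1 (Ddit3, beside 2.59% of all genes) and 0 in KO2 (1.21%). KO2 was the highest of the 4 livers for 33 members and for 41% of all genes. The median difference of the members from the WT mean, on the log2(FPKM + 0.1) scale used throughout, was 1.01 in KO2 and -0.06 in KO1, beside 0.12 and -0.17 for all genes tested. Their summed level was 1340 FPKM in WT1, 1100 in WT2, 1350 in KO1 and 3220 in KO2. KO2 was over 2-fold above KO1 for 19 members, beside 13.9% of all genes. The KO1 sum lay near that of WT1, and the KO2 sum stood apart from the other 3.

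**Figure D1:**
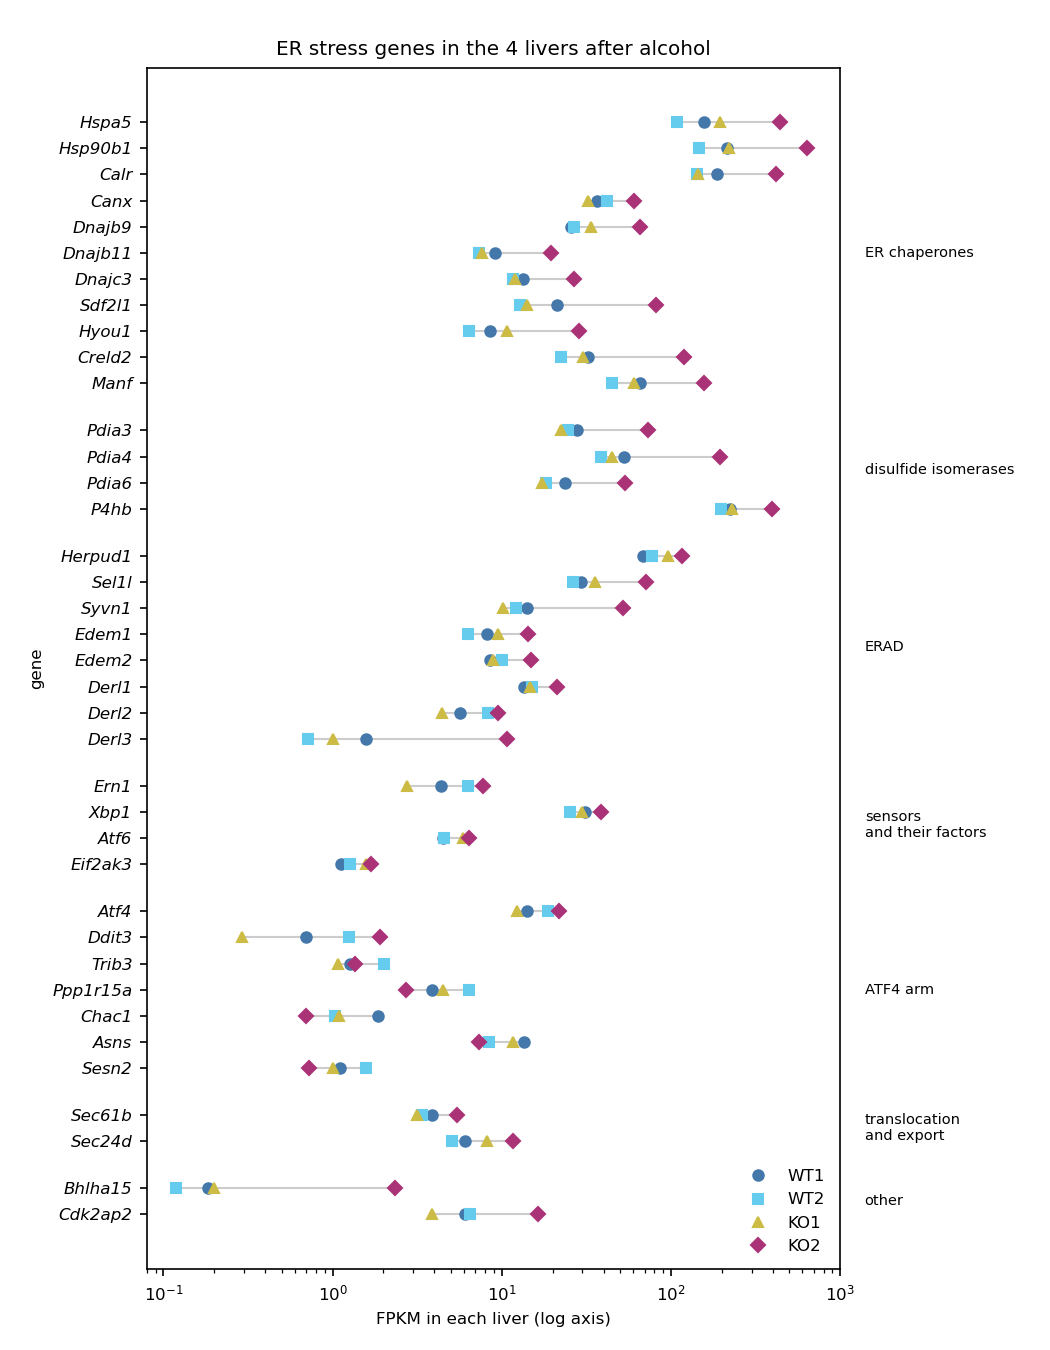
FPKM of the 38 ER stress genes in each liver, on a log axis, grouped by role; each marker is 1 liver and the grey line joins the lowest and the highest. KO2 is the highest liver for 33 of the 38 genes, and KO1 lies between the WT livers for 6 of the 11 chaperones.

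When the KO livers were averaged, the median log2 difference of the members was 0.53, beside -0.02 for all genes tested, and it rested on KO2: it was 1.01 without KO1 and -0.06 without KO2. Of the 38 members, 5 passed the study's threshold (limma), all higher in KO (Hspa5, Hsp90b1, Hyou1, Creld2 and Bhlha15), beside 0.437% of all genes in that direction. Without WT2, the log2 differences of Hspa5, Hsp90b1 and Creld2 were 0.91, 0.82 and 0.89, each under 2-fold. That of Hyou1 was 1.03. Without KO2, the log2 difference of Ddit3 was -1.42. A fit with 1 liver in a group takes its spread from the group that keeps both livers, and the lone liver is assumed to vary like it. Both KO livers were above both WT livers for 12 members, beside 10.7% of all genes, and both were below for 1 member, beside 10%. Because Hspa5 and Bhlha15 prompted the list, these counts describe it and no more. In bulk liver, a change in the share of cells and a change of RNA per cell cannot be told apart.

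The ER chaperones were high in KO2 and mixed in KO1. All 11 were highest in KO2, at 1.55 to 4.77 times the WT mean, and 10 of them were over 2-fold above it. In KO1 the same genes ran from 0.830 to 1.47 times the WT mean. Hspa5, which encodes BiP, the HSP70 chaperone that binds unfolded chains and keeps the sensors inactive, read 156 and 109 FPKM in WT1 and WT2, 196 in KO1 and 441 in KO2. Both KO livers were above both WT livers, and KO2 was 2.25 times KO1. The log2 difference between genotypes was 1.17 ± 0.39 (SE of the limma fit, as for each SE below, n = 2 livers each). The listed Hspa5 transcript lies at chr2:34772095-34776531 on the plus strand.

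Hsp90b1, which encodes the ER HSP90 protein GRP94, read 214 and 146 FPKM in WT1 and WT2, 220 in KO1 and 642 in KO2. KO1 was close to WT1, and KO2 was 3.57 times the WT mean. Hyou1 encodes a large HSP70-like protein that exchanges nucleotide on BiP. Its values were 8.57 and 6.37 FPKM in the WT livers, 10.8 in KO1 and 28.7 in KO2, with a log2 difference of 1.25 ± 0.43 (SE). Hyou1 and Hspa5 were the chaperones with the highest values in KO1 relative to WT, at 1.45 and 1.47 times the WT mean.

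Creld2 and Manf encode small ER proteins that are secreted under stress. Creld2 read 32.4 and 22.3 FPKM in WT, 30.3 in KO1 and 120 in KO2, so that KO1 lay between the WT livers. Manf read 65.6 and 44.8 FPKM in WT, 60.7 in KO1 and 158 in KO2, the same order of livers. Sdf2l1, a partner of the ER J-proteins, had the widest chaperone range, with 21.3 and 12.8 FPKM in WT, 14.2 in KO1 and 81.3 in KO2. KO2 was 5.72 times KO1 for this gene.

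The J-proteins, which bring clients to BiP, differed in KO1. Dnajb9 read 25.8 and 26.7 FPKM in WT, 33.7 in KO1 and 65.3 in KO2, above WT in both KO livers. Dnajb11 read 9.18 and 7.31 FPKM in WT, 7.66 in KO1 and 19.6 in KO2. Dnajc3 read 13.4 and 11.6 FPKM in WT, 12.0 in KO1 and 26.7 in KO2. For these last genes KO1 fell between the WT livers. Among the lectin chaperones of the calnexin cycle, which hold glycoproteins until they fold, Calr read 187 and 142 FPKM in WT, 145 in KO1 and 420 in KO2. Canx, its membrane-bound relative, had the lowest KO2 ratio of the chaperones, 1.55 times the WT mean, and in KO1 it was below both WT livers at 0.830 times the WT mean.

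The 4 disulfide isomerases, which form and rearrange disulfide bonds in new proteins, had a median log2 difference from WT of 1.42 in KO2 and -0.11 in KO1. Pdia4 read 52.5 and 38.7 FPKM in WT, 45.0 in KO1 and 195 in KO2, the highest KO2 ratio of the branch at 4.27 times the WT mean. Pdia3, which works with the calnexin cycle, read 27.7 and 24.6 FPKM in WT, 22.5 in KO1 and 73.2 in KO2. Pdia6 read 23.7 and 18.4 FPKM in WT, 17.2 in KO1 and 53.5 in KO2. Both Pdia3 and Pdia6 were thus lowest in KO1 and highest in KO2. P4hb, the founding isomerase and also the beta subunit of collagen prolyl 4-hydroxylase, read 224 and 198 FPKM in WT, 230 in KO1 and 396 in KO2.

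ER-associated degradation (ERAD) carries misfolded proteins back to the cytosol for the proteasome. All 8 members were above both WT livers in KO2, with a median log2 difference of 0.83, and 3 of the 8 were above both in KO1, where the median was -0.01. Derl3, a derlin of the retrotranslocation complex, read 1.58 and 0.712 FPKM in WT, 1.01 in KO1 and 10.8 in KO2. KO2 was 9.40 times the WT mean for this gene, while KO1 lay between the WT livers, which themselves differed 2.22-fold. The FPKM of Derl3 corresponds to about 169, 75, 104 and 1032 reads in WT1, WT2, KO1 and KO2. The listed transcript lies at chr10:75893413-75895941 on the plus strand. Its relatives lay nearer to WT, with Derl1 at 1.48 and Derl2 at 1.35 times the WT mean in KO2, and in KO1 Derl2 was below both WT livers at 0.631 times their mean.

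Syvn1, the ubiquitin ligase HRD1, read 14.1 and 12.1 FPKM in WT, 10.2 in KO1 and 51.8 in KO2, so that the KO livers lay on opposite sides of WT. Sel1l, its adaptor, read 29.3 and 26.3 FPKM in WT, 35.8 in KO1 and 71.2 in KO2, above WT in both. Herpud1, the member with both an ERSE-II and an amino acid response element, read 68.5 and 77.1 FPKM in WT, 96.1 in KO1 and 117 in KO2. It differed little between the KO livers, 1.22-fold, with a log2 difference from WT of 0.55 ± 0.32 (SE). Edem1, which marks misfolded glycoproteins for disposal, read 8.24 and 6.33 FPKM in WT, 9.56 in KO1 and 14.3 in KO2. Edem2 was at 1.59 times the WT mean in KO2 and 0.953 times in KO1.

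The sensors and their factors lay nearer to WT in KO2 than the median chaperone did. Their median log2 difference was 0.48 in KO2 and 0.23 in KO1, an order that turned after median-ratio rescaling (0.35 and 0.42), and none of the 4 was over 2-fold from the WT mean in KO2. Xbp1 read 31.1 and 25.3 FPKM in WT, 29.8 in KO1 and 38.9 in KO2. These are levels of the gene, and the spliced form was not analysed here. Atf6 and Eif2ak3 were above WT in both KO livers by similar amounts, at 1.30 and 1.42 times the WT mean for Atf6 and 1.33 and 1.41 times for Eif2ak3 in KO1 and KO2. Ern1 was at 0.518 times the WT mean in KO1 and 1.46 times in KO2, with a log2 difference between genotypes of -0.17 ± 0.44 (SE).

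**Figure D2:**
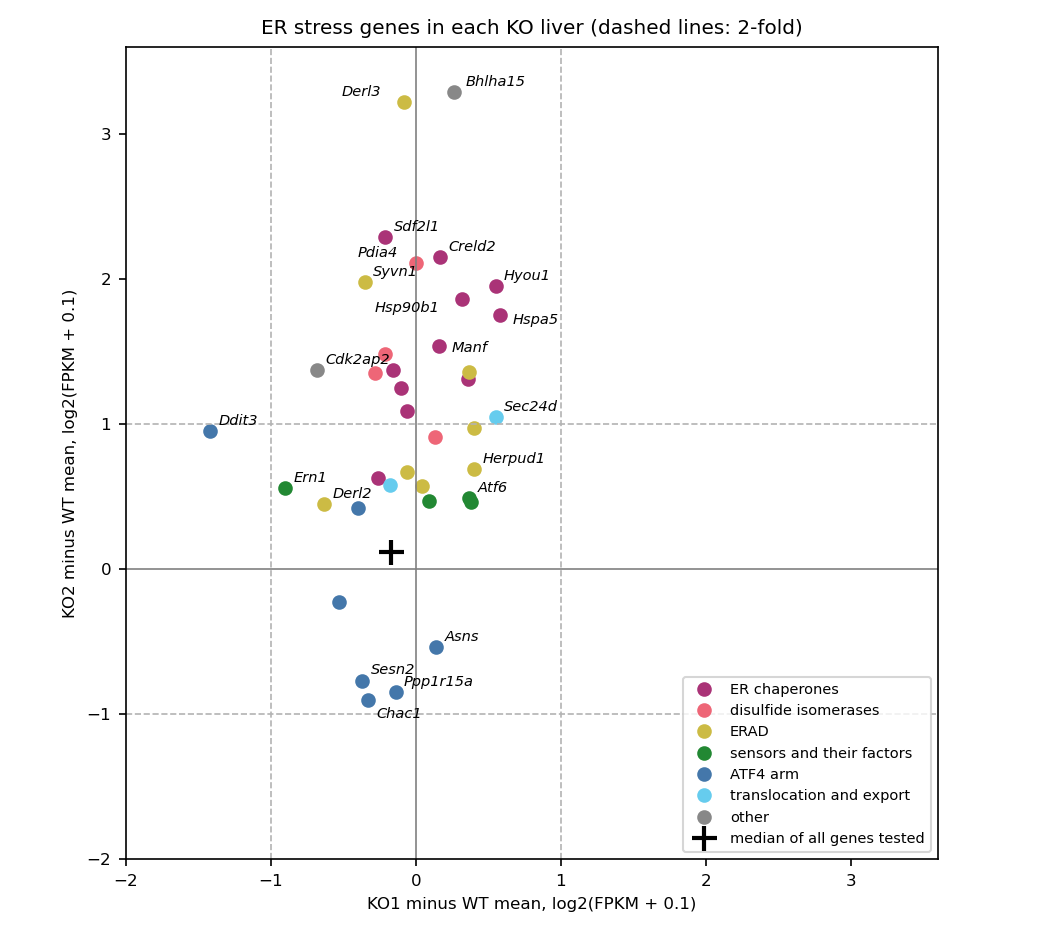
Difference of each ER stress gene from the WT mean, on the log2(FPKM + 0.1) scale, in KO1 (horizontal) and KO2 (vertical), coloured by role; dashed lines mark 2-fold and the cross is the median of the 12346 genes tested. Chaperones, isomerases and ERAD genes lie along the vertical axis, up to 3.22 in KO2 for Derl3, Bhlha15 is at 3.29, and 5 of the 7 genes of the ATF4 arm lie below 0 in KO2.

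The ATF4 arm did not follow the chaperones. Its median log2 difference was -0.54 in KO2 and -0.37 in KO1. In KO2, 5 of its 7 genes were below the WT mean, beside 4227 of the 12346 genes tested. All 31 other members were above both WT livers in KO2, beside 44.8% of all genes. Atf4 itself read 14.2 and 18.7 FPKM in WT, 12.3 in KO1 and 21.9 in KO2. Its log2 difference between genotypes was 0.01 ± 0.37 (SE), and -0.01 after quantile normalization. Chac1, which encodes a glutathione-degrading enzyme, read 1.86 and 1.04 FPKM in WT, 1.09 in KO1 and 0.698 in KO2. Sesn2, a stress-induced regulator of mTORC1, read 1.10 and 1.57 FPKM in WT, 1.00 in KO1 and 0.729 in KO2, and was the member with both KO livers below both WT livers. Its log2 difference was -0.57 ± 0.36 (SE).

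Ppp1r15a, which encodes GADD34, the phosphatase subunit that reverses eIF2alpha phosphorylation, was at 0.879 and 0.527 times the WT mean in KO1 and KO2. Asns, asparagine synthetase, was at 1.07 and 0.667 times. Trib3, an ATF4-induced pseudokinase, was below the WT mean in both KO livers, at 0.654 and 0.824 times. Ddit3, which encodes the pro-apoptotic factor CHOP, read 0.701 and 1.25 FPKM in WT, 0.290 in KO1 and 1.90 in KO2. It was the lowest member in KO1 relative to WT, at 0.297 times the WT mean, and it was above both WT livers in KO2. These levels correspond to only 22 to 134 reads per liver, on a listed transcript that the annotation calls a retained intron.

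Of the genes of translocation and export, Sec24d, a cargo adaptor of COPII vesicles, read 6.10 and 5.05 FPKM in WT, 8.19 in KO1 and 11.6 in KO2. Both KO livers were above WT, with a log2 difference of 0.80 ± 0.35 (SE). Sec61b, a subunit of the channel that admits new proteins into the ER, was at 1.5 times the WT mean in KO2 and 0.874 times in KO1.

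Bhlha15, also called Mist1, is a transcription factor of secretory cells that is induced by XBP1. It read 0.184 and 0.118 FPKM in WT, 0.198 in KO1 and 2.34 in KO2, or about 52, 33, 54 and 592 reads. KO2 was 15.5 times the WT mean, and KO1 was at 1.31 times, near WT1. The listed transcript lies at chr5:144190286-144194441 on the plus strand. Cdk2ap2, a CDK2-associated protein, read 6.09 and 6.47 FPKM in WT, 3.88 in KO1 and 16.4 in KO2, so that the KO livers again lay on opposite sides of WT. Because Bhlha15 marks pancreatic acinar cells and plasma cells, the markers of those cells were read in the same livers. Of the 27 acinar markers in the table, 15 were at 0 in all 4 livers, among them Prss1, Cpa1, Cel and Ptf1a, and the sum of the list was 2.16 FPKM in KO2 against 2.35 and 3.45 in WT. Of the 16 plasma cell markers in the table, Tnfrsf17 and Fcrl5 were at 0 in all livers, and Jchain read between 0.184 and 0.368 FPKM. The immunoglobulin genes Ighm, Igha and Igkc had no entry and could not be read. In all, 14 of the 16 were under 1 FPKM in every liver. Among these, Slamf7 was highest in KO2, at 0.0114 and 0.0116 FPKM in WT, 0.0473 in KO1 and 0.127 in KO2. The sum of that list, which is made up mostly of Sdc1 and Xbp1, was 54.9 FPKM in KO2, 65.6 in KO1, and 49.4 and 42.9 in WT. Only 3 genes of the plasma cell list and 2 of the acinar list passed the low-value filter. Among those 3, Sdc1 had the largest rise between genotypes (log2 difference 0.41) and Jchain the largest fall (-0.22). Of the 2 acinar genes, Cela1 had the larger fall (-0.31), and neither was higher in KO.

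Other markers did move with KO2. All 11 Kupffer cell and macrophage markers were highest in KO2 and more than 2-fold above the WT mean there, with a sum of 139 FPKM against 48.8 and 49.9 in WT and 63.2 in KO1, and none was at 0. None of the 11 was lower in KO against WT, and Cd68 had the largest rise (log2 difference 1.47). Of these, 3 passed the threshold in KO against WT. Cd68 read 1.66 and 2.01 FPKM in WT, 3.90 in KO1 and 7.01 in KO2, Cd5l read 3.92, 4.85, 5.22 and 19.9 FPKM in the same order, and Vsig4 read 2.33, 2.69, 2.79 and 9.32 FPKM. The part of these cells in the ER stress values was not tested. The sum of 12 hepatocyte markers was 37600 and 31300 FPKM in WT, 33100 in KO1 and 37200 in KO2, and Alb read between 10700 and 12500 FPKM in the 4 livers. Tat had the largest rise of that list between genotypes (log2 difference 0.53) and Serpina1a the largest fall (-0.27).

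The members differ in how far the WT livers agreed. WT1 was above WT2 for 9 of the 11 chaperones and all 4 isomerases, while it was above WT2 for 19.7% of all genes tested. Hspa5 and Hsp90b1 differed 1.43-fold and 1.46-fold between the WT livers, and Sdf2l1 1.67-fold. Relative to WT2 alone, the median log2 difference of the chaperones between genotypes was 1.13, and relative to WT1 alone it was 0.67.

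All livers were also put on a common scale by median ratios, because the median of all genes lay off 0 in KO1 and KO2. The chaperones then had a median of 0.36 in KO1 and 1.41 in KO2, the isomerases 0.09 and 1.29, and the ERAD genes 0.18 and 0.70. The ATF4 arm had medians of -0.19 and -0.67 on this scale. For the sensors and their factors the order of the KO livers turned, with medians of 0.42 in KO1 and 0.35 in KO2. The isomerase and ERAD medians in KO1 thus changed sign and stayed near 0, and the KO2 medians kept their signs. Over 2-fold above the WT mean in KO2 were 17 members on this scale, against 2.49% of all genes.

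Beyond the members, 132 further genes of the same pathways were read, of which 126 passed the filter. None passed the threshold in either direction (limma), and 2 had an unadjusted p under 0.05, Hspa13 and Wfs1, both higher in KO. The 26 other ER folding genes had a median log2 difference of 0.54 in KO2 and -0.14 in KO1, and all 26 were above the WT mean in KO2, against 65.8% of all genes. Hspa13, an HSP70-like protein of the ER, had the largest rise of these in KO against WT, reading 6.91 and 5.07 FPKM in WT, 8.13 in KO1 and 15.7 in KO2. The 32 translocation and COPII genes that passed the filter had medians of 0.56 in KO2 and -0.01 in KO1. These lists thus showed the same order of the KO livers as the members, with smaller medians than the chaperones. Mogs had the largest fall among the folding genes (log2 difference -0.16), and among the translocation and COPII genes Sec61a2 had the largest fall (-0.50) and Lman1, a cargo receptor, the largest rise (0.70).

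The 22 other ERAD genes had medians of 0.33 in KO2 and -0.12 in KO1, and the 18 other sensor and factor genes 0.22 and -0.12. Wfs1, an ER membrane protein that is induced in ER stress, read 2.79 and 2.45 FPKM in WT, 3.64 in KO1 and 6.80 in KO2, the largest rise of its list. Traf2 had the largest fall there (log2 difference -0.24), and among the ERAD genes Edem3 had the largest rise (0.41) and Sel1l3 the largest fall (-0.16). The 28 other ATF4 targets and genes of eIF2alpha control had medians of 0.16 in KO2 and -0.24 in KO1, close to those of all genes. Over 2-fold above the WT mean in KO2 were 3 of them, Atf5, Mthfd2 and Psat1 (3.26% of all genes), and 0 were over 2-fold below. In KO1, 5 were over 2-fold below the WT mean (2.59% of all genes), these 3 among them, and 2 were over 2-fold above (1.09%). Atf5 was singled out after its values were seen. Atf5, a translationally controlled relative of ATF4, read 163 and 213 FPKM in WT, 45.2 in KO1 and 382 in KO2. Fgf21, a hormone of hepatic stress, had the largest fall of this list between genotypes, reading 10.5 and 24.9 FPKM in WT, 4.80 in KO1 and 18.0 in KO2. Gdf15, a stress-induced cytokine, had the largest rise, reading 2.12 and 10.1 FPKM in WT, 11.7 in KO1 and 4.63 in KO2. For Fgf21 and Gdf15 the WT livers differed as much as the groups did.

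**Figure D3:**
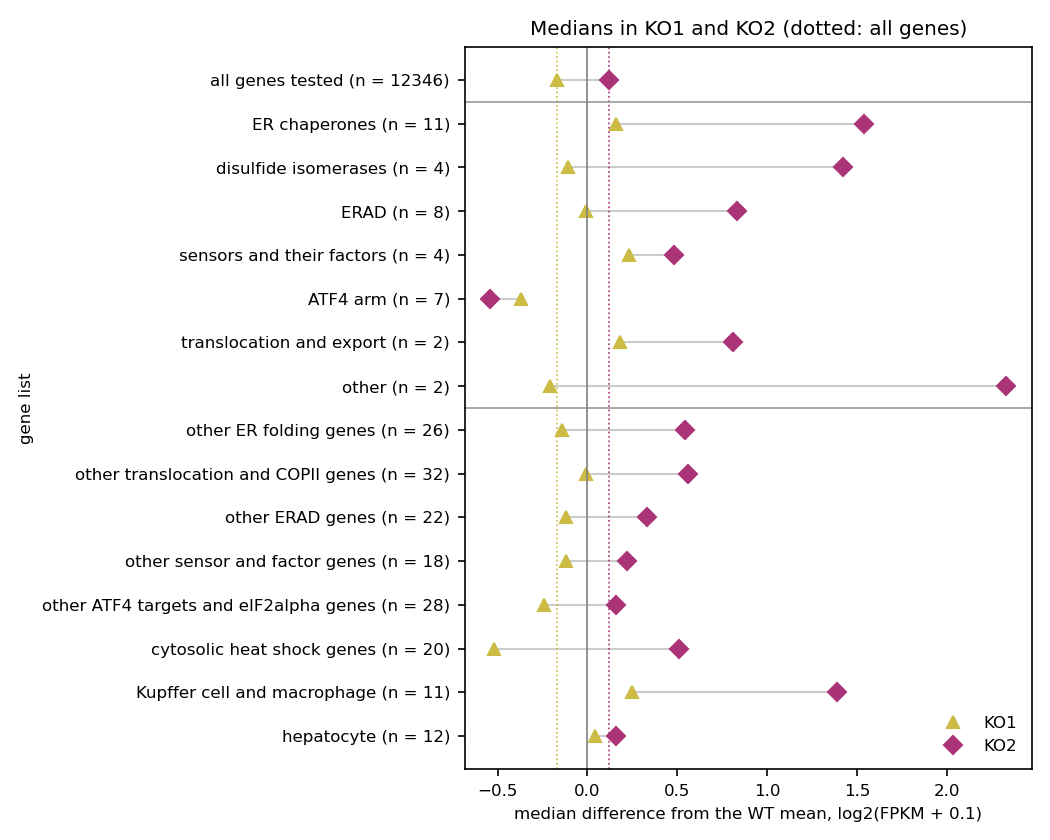
Median difference from the WT mean, on the log2(FPKM + 0.1) scale, of each group of members (upper block), of further pathway lists and of marker lists (lower block), in KO1 and KO2; n is the number of genes that passed the filter. The chaperone medians are 1.54 in KO2 and 0.16 in KO1, and those of the ATF4 arm are -0.54 and -0.37.

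The members were also set side by side by promoter element. The 9 members with an ERSE had a median log2 difference of 1.75 in KO2, and 8 of the 9 were over 2-fold above the WT mean. The 25 members with a promoter sequence and no ERSE had a median of 0.69, with 9 over 2-fold. All 7 genes of the ATF4 arm were among these 25, and the other 18 had a median of 1.01. In KO1 the medians of the 9 and the 25 were -0.08 and -0.10. Bhlha15, Sdf2l1 and Pdia4 were among the members over 2-fold in KO2 whose promoter window held no ERSE as spelled here. Outside the members, 28 genes had an ERSE, of which 8 passed the filter, and their median was 0.28 in KO2. Of these 8, Alg12 was over 2-fold above the WT mean in KO2, and the other 7 were not. Alg12, which encodes a mannosyltransferase of ER glycosylation, read 4.37 and 3.95 FPKM in WT, 4.32 in KO1 and 8.48 in KO2. Its promoter window overlaps that of Creld2 on the other strand, so the same element is counted for both. Acnat2, an acyltransferase gene, had the largest fall of the 8 between genotypes, with a log2 difference of -0.58, reading 106 and 108 FPKM in WT, 40.8 in KO1 and 126 in KO2.

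**Figure D4:**
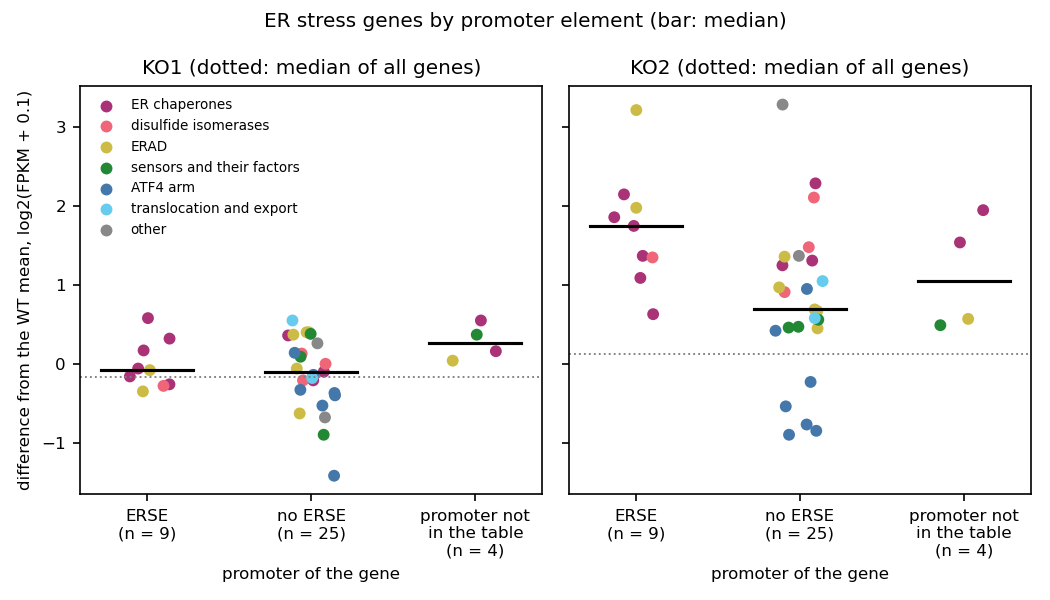
Difference of each ER stress gene from the WT mean, on the log2(FPKM + 0.1) scale, in KO1 (left) and KO2 (right), by whether an ERSE was found in its promoter; bars are medians and dotted lines the median of all genes tested. In KO2 the bar is at 1.75 for genes with the element and 0.69 for genes without, which include the 7 genes of the ATF4 arm, and in KO1 both lie near the dotted line.

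FPKM values of different genes are on uncertain lengths. For 7 of the 38 members (Hsp90b1, Hyou1, Ddit3, Syvn1, Derl2, Sec61b and Cdk2ap2) the table lists 1 transcript that the annotation calls noncoding, and for Ppp1r15a it lists 1 that is not in the annotation, so the length behind the FPKM may not be that of the coding mRNA. Ratios between livers for 1 gene do not depend on that length.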

How the data were processed

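Total RNA of 4 livers (2 WT, 2 KO) was sequenced, on BGIseq per the labels, although the study's methods name another platform. The authors deposited FPKM per gene, 1 listed transcript each; HISAT2 2.0.4, StringTie 2.1.4 and GRCm38 are named in the submitters' processing notes. Date-like symbols were restored for 27 entries. Depth was recovered from low FPKM values, 88.6% to 89.7% of which were whole read numbers to a tolerance of 0.1. The values were transformed to log2(FPKM + 0.1), genes with a mean under 0.1 FPKM were left out, and KO was compared with WT by limma 3.58.1 with trend in R 4.3.3, with Benjamini-Hochberg adjustment over 12346 genes, after a check on simulated data. Differences of each KO liver are from the mean of the WT logs. The standard errors are those of the limma fit. They draw the spread of the 2 livers per group toward a trend over all genes, so they are not the spread of these livers alone. The members, the branches, the further lists and the motifs were chosen with earlier results of these data known. Every member is named; FPKM in each liver is given where group means differed over 1.5-fold, for the member of highest listed FPKM in each branch, and for Hspa5, Bhlha15 and Smarca4. Of further lists, genes past the threshold and the largest rise and fall among the genes that passed the filter are named. Other pseudocounts, filters, scalings and livers left out were tried.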

Additional observations from a re-analysis of the deposited data

How the results depend on the processing

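The number of genes past the threshold, 121, was 18 with a pseudocount of 1, 80 with no filter and 68 once genes under a mean of 1 FPKM were left out, and between 78 and 552 when 1 liver was left out. Of the members, 5 passed the threshold, against 2 with no filter (Hspa5 and Hyou1), 2 after median-ratio rescaling (the same genes) 1 after quantile normalization (Hyou1) and 7 with the low-value filter at 1 FPKM (Bhlha15 not tested; Derl3, Pdia4 and Sdf2l1 added), and between 0 and 19 when 1 liver was left out. A pseudocount of 1 put Derl3 in the place of Bhlha15 among the 5. With the replicate number as a block, 2 members passed (Hspa5 and Hyou1). The deviations of same-numbered livers from their group means had a correlation of r = 0.03 over 12346 genes. With 2 livers per group, that correlation cannot decide whether the numbers pair the livers. By median absolute log2 difference the same-numbered livers were the closest pairs (0.233 for WT1 and KO1, 0.263 for WT2 and KO2). The median log2 difference of the members ran from -0.06 to 1.01 with 1 liver left out, that of the chaperones from 0.16 to 1.54 and that of the ERAD genes from -0.01 to 0.83, the lower value without KO2 and the higher without KO1. Smarca4 was at -0.85 with a pseudocount of 1, which is near its level, and no longer over 2-fold lower. The count of members over 2-fold above the WT mean in KO2, an alternative reading added after seeing the data, ran from 17 to 20, and in KO1 it was 0 in each setting. With all livers, 302 of 303 member values under the alternatives moved by less than the replicate SD. This count was largely fixed in advance. The other filters, the fit without trend and the block leave the log2 difference of a member unchanged, and the replicate SD includes the gap between KO1 and KO2. With 2 livers per group and 1 KO liver apart from the other, these values cannot tell a genotype difference from one between mice.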

Other observations

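The cytosolic heat shock genes, which serve protein folding outside the ER, also differed between the KO livers. Their median log2 difference from the WT mean was 0.51 in KO2 and -0.52 in KO1, and WT1 and WT2 differed as well, with a median of -0.64 for WT1 minus WT2. Hspa1a, the inducible HSP70, read 2.91 and 6.45 FPKM in WT, 2.52 in KO1 and 23.0 in KO2, the largest rise of the list. Hspb1 read 3.69 and 8.13 FPKM in WT, 3.25 in KO1 and 3.73 in KO2, the largest fall. None of the 20 genes passed the threshold or had an unadjusted p under 0.05 (limma).

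The markers of other liver cells had smaller medians in KO2 than the Kupffer cell markers. The medians in KO1 and KO2 were -0.58 and 0.21 for sinusoidal endothelial cells and 0.14 and 0.05 for stellate cells. They were -0.14 and -0.15 for the 6 of 10 biliary markers that passed the low-value filter. For the 5 of 10 neutrophil markers that passed it, they were 0.06 and 0.01. Of the 10 neutrophil markers, 8 were under 1 FPKM in every liver. Among those under the filter, Ly6g, Mpo, Ngp and Camp were highest in KO1, and Elane in KO2. The neutrophil markers S100a8 and S100a9 were highest in KO1, at 3.13 and 12.3 FPKM, against 1.61 and 8.64 in WT1, 0.862 and 2.99 in WT2, and 1.19 and 6.10 in KO2. The largest rises and falls in KO against WT, as log2 differences, are given among the genes that passed the filter. They were 0.02 for Cdh5 and -0.50 for Oit3 in endothelial cells, and 0.43 for Col3a1 and -0.45 for Lrat in stellate cells. In biliary cells they were 0.17 for Epcam and -0.84 for Sox9, and in neutrophils 0.76 for S100a9 and -0.21 for Retnlg. None of these genes passed the threshold.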
